A study of Mus musculus with 3 samples.

Results

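Classical monocytes are white blood cells that carry the surface protein Ly6C and, in mouse, express Ly6c2, Chil3 and Plac8. In single-cell RNA data of the mouse left ventricle, 174 such cells were found among 45239 cells past the cell filter, 30 in HFpEF-FoxO1-sh, 107 in HFpEF-scr and 37 in Control. They were chosen by counts of unique molecular identifiers (UMIs, each standing for 1 captured RNA molecule). A cell needed a sum of at least 4 UMIs of Ly6c2, Chil3 and Plac8 and at least 3 of Lyz2, the lysozyme gene of myeloid cells. It could hold at most 1 UMI of the macrophage genes C1qa, C1qb and C1qc, fewer than 20 of the neutrophil genes S100a8 and S100a9, and none of the lymphocyte genes Cd79a, Cd3e and Nkg7 or of the dendritic cell gene Cd209a. Fewer than 3 UMIs of Spp1, Gpnmb and Arg1, genes of lipid-associated macrophages, and fewer than 2 of Ace, Treml4 and Adgre4, genes of non-classical monocytes, were allowed. Barcodes counted as cells with 500 or more UMIs, 300 or more genes and no more than 20% of UMIs from mitochondrial genes.

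The study asked about FoxO1, a transcription factor, in a mouse model of heart failure with preserved ejection fraction (HFpEF). HFpEF-FoxO1-sh mice spent 6 weeks on the High-Fat + L-NAME diet and were given, for 4 weeks, an adeno-associated virus with a short hairpin against FoxO1 (AAV-FoxO1-sh). HFpEF-scr mice spent 6 weeks on that diet, with AAV-scramble-sh, a virus with a scrambled hairpin, for 4 weeks. Control mice had a standard diet for 10 weeks, and their label names no virus, so diet and virus cannot be told apart between HFpEF-scr and Control. All mice are labelled C56Bl6. L-NAME inhibits the synthases of nitric oxide. Each group is 1 library made from 4 pooled samples, with no map from cells to samples, so no value below has a replicate and no test was made. Every comparison is between libraries, and the intervals, all at 95%, cover counting error only. The labels give neither the age or sex of the mice nor whether hearts were flushed of blood, so monocytes of the blood and of the tissue cannot be told apart. Tissue was digested with enzymes, cardiomyocytes were strained out at 70 µm and red blood cells were lysed.

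Classical monocytes arise in the bone marrow and leave it by way of the chemokine receptor Ccr2. They can enter injured tissue and become macrophages there, or turn in the blood into non-classical monocytes, a step that needs the nuclear receptor Nr4a1. In the heart they renew part of the macrophages and are known for inflammatory cytokines and for clotting factor XIII held in the cytoplasm.

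Several of the results below turn on whether a cell held the genes of MHC class II, the proteins that present antigen to helper T cells. The promoters of H2-Aa and H2-Eb1, which encode an alpha and a beta chain, are shown because the levels of these genes differed widely between the libraries and came from few cells. They run from 250 bases before to 50 bases after the RefSeq transcription start (assembly GRCm38.p6) and lie at chr17:34287774-34288073 on the minus strand for H2-Aa and at chr17:34305617-34305916 on the plus strand for H2-Eb1. Capitals mark the Y box, a word known from MHC class II promoters, searched as ATTGG and as its reverse complement CCAAT.
H2-Aa: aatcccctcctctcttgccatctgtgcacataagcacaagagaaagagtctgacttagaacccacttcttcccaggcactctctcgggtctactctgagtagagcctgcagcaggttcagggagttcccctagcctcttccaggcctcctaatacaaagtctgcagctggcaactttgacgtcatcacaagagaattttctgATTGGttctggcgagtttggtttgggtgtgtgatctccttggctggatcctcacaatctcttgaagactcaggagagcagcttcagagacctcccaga
H2-Eb1: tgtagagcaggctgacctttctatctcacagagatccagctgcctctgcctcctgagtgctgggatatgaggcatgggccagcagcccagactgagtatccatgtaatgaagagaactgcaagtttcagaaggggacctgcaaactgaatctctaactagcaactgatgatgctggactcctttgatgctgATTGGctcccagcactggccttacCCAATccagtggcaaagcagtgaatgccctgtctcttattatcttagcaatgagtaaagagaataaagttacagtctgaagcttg
The word starts 48 bases before the start of H2-Aa, and 59 and 35 bases before that of H2-Eb1. It is common: 10248 of 27025 mouse promoters (37.9%) hold it, against 6 of the 9 promoters matched for the MHC class II list. A match is a description of the letters and does not show that a factor binds there.

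The libraries held similar totals, 144561934 UMIs in 27453 barcodes in HFpEF-FoxO1-sh, 154385813 UMIs in 36179 barcodes in HFpEF-scr and 146230530 UMIs in 33022 barcodes in Control. The median per barcode was higher in HFpEF-FoxO1-sh, at 5123 UMIs, against 3707 UMIs in HFpEF-scr and 3833 UMIs in Control. HFpEF-FoxO1-sh also stands apart in its mitochondrial share, with a median of 11.7% per barcode against 22.1% in HFpEF-scr and 24.6% in Control. The 20% limit left 17391 cells in the library labelled HFpEF-FoxO1-sh, 14909 cells in HFpEF-scr and 12939 cells in Control. Foxo1 (ENSMUSG00000044167; mm10, chromosome 3, 52268336 to 52353221, plus strand), the gene that the hairpin targets, had 60.1 UMIs per 1e6 UMIs (CPM) over all cells of HFpEF-FoxO1-sh, 56.4 CPM in HFpEF-scr and 61.2 CPM in Control. In the classical monocytes it had 8 UMIs in HFpEF-FoxO1-sh, or 34.8 CPM (15.0 to 68.6), 18 UMIs in HFpEF-scr, or 21.6 CPM (12.8 to 34.1), and 8 UMIs in Control, or 28.9 CPM (12.5 to 57.0). A lower level was thus not seen in the sample that carries the hairpin's name, and it is therefore named by its label below. Which cell types the virus enters is not stated.

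The monocytes themselves held 229931 UMIs in the library labelled HFpEF-FoxO1-sh, 833261 in HFpEF-scr and 276748 in Control. Their median depth per cell was close, at 6944.5 UMIs in the library labelled HFpEF-FoxO1-sh (1034 to 17672), 7218 in HFpEF-scr (4120 to 18553) and 7298 in Control (2919 to 12323). Median genes per cell were 1970 in the library labelled HFpEF-FoxO1-sh, 2115 in HFpEF-scr and 1958 in Control. Their median mitochondrial share was 7.69% in the library labelled HFpEF-FoxO1-sh, 12.1% in HFpEF-scr and 13.2% in Control. Between 38 and 65 barcodes past the filter were shared by each pair of libraries, and none of these was a classical monocyte in both libraries of the pair. Scrublet, a doublet caller, marked 1 of the 30 monocytes of the library labelled HFpEF-FoxO1-sh, 6 of the 107 of HFpEF-scr and none of the 37 of Control.

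The markers bore out the name for most cells. Ccr2, which the rule did not use, had a UMI in 28 of 30 cells of the library labelled HFpEF-FoxO1-sh, all 107 cells of HFpEF-scr and 34 of 37 cells of Control. A fibroblast gate took cells with at least 20 UMIs of Col1a1, Col3a1 and Dcn, at most 1 of Lyz2 and none of Ptprc. At a median of 6621.5 to 6996 UMIs, the share of these cells with a Ccr2 UMI was at most 0.128%. This share is a rough gauge of free RNA in the droplets. The limits on Lyz2 and Ptprc leave out droplets with more free RNA of white blood cells, so it can be too low. The same holds for the other fibroblast shares of white blood cell genes below. Other classical genes were also widespread, such as F13a1, the A subunit of clotting factor XIII, found at 73.3% in the library labelled HFpEF-FoxO1-sh, 92.5% in HFpEF-scr and 73% in Control. Csf1r, the receptor for macrophage colony-stimulating factor, was found at 70% in the library labelled HFpEF-FoxO1-sh, 92.5% in HFpEF-scr and 81.1% in Control. In the fibroblasts these shares were at most 0.84% for F13a1 and 1.11% for Csf1r.

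The rule genes set the membership and are given only as a description. Per cell, their sum ran from 4 to 119 UMIs in the library labelled HFpEF-FoxO1-sh (median 26.5), from 5 to 128 in HFpEF-scr (median 43) and from 4 to 101 in Control (median 25). Just inside the limit, at exactly 4 UMIs, were 2 cells of the library labelled HFpEF-FoxO1-sh, none of HFpEF-scr and 2 of Control. Just outside, at 3 UMIs with all other limits met, were 0 cells of the library labelled HFpEF-FoxO1-sh, 1 of HFpEF-scr and 4 of Control. Ly6c2 stood at 683 CPM in the library labelled HFpEF-FoxO1-sh, 1342 CPM in HFpEF-scr and 618 CPM in Control. Chil3 stood at 657 CPM in the library labelled HFpEF-FoxO1-sh, 826 CPM in HFpEF-scr and 444 CPM in Control. Plac8 stood at 3275 CPM in the library labelled HFpEF-FoxO1-sh, 3427 CPM in HFpEF-scr and 2612 CPM in Control. No Ly6c2 UMI was found in 8 cells of the library labelled HFpEF-FoxO1-sh, 6 of HFpEF-scr and 6 of Control. The limit on Ace, Treml4 and Adgre4 was the one that alone left out the most cells, 41 in the library labelled HFpEF-FoxO1-sh, 136 in HFpEF-scr and 44 in Control.

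Classical monocytes were a larger share of cells in HFpEF-scr than in either other library. They were 0.173% of cells in the library labelled HFpEF-FoxO1-sh (0.116 to 0.246), 0.718% (0.589 to 0.867) in HFpEF-scr and 0.286% (0.201 to 0.394) in Control. The share of the library labelled HFpEF-FoxO1-sh was 0.240 times that of HFpEF-scr (0.155 to 0.363), and the share of HFpEF-scr was 2.51 times that of Control (1.71 to 3.75). Counted among cells with a UMI of Ptprc, the gene of the leukocyte antigen CD45, the shares were 0.832% in the library labelled HFpEF-FoxO1-sh, 3.71% in HFpEF-scr and 1.89% in Control. Per 100 macrophages the number of classical monocytes was 1.32 in the library labelled HFpEF-FoxO1-sh, 5.86 in HFpEF-scr and 2.86 in Control. The higher share in HFpEF-scr was thus also present against other white blood cells.

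A tighter mitochondrial limit of 10% left 24 classical monocytes of 10151 cells in the library labelled HFpEF-FoxO1-sh, 30 of 3441 in HFpEF-scr and 5 of 2591 in Control. The share ratio was then 0.271 for the library labelled HFpEF-FoxO1-sh relative to HFpEF-scr and 4.52 for HFpEF-scr relative to Control. Over all settings tried, it lay between 0.161 and 0.288 for the library labelled HFpEF-FoxO1-sh relative to HFpEF-scr, and between 1.96 and 4.52 for HFpEF-scr relative to Control. With 1 library per group, the handling of each heart pool and its group cannot be told apart.

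**Figure D1:**
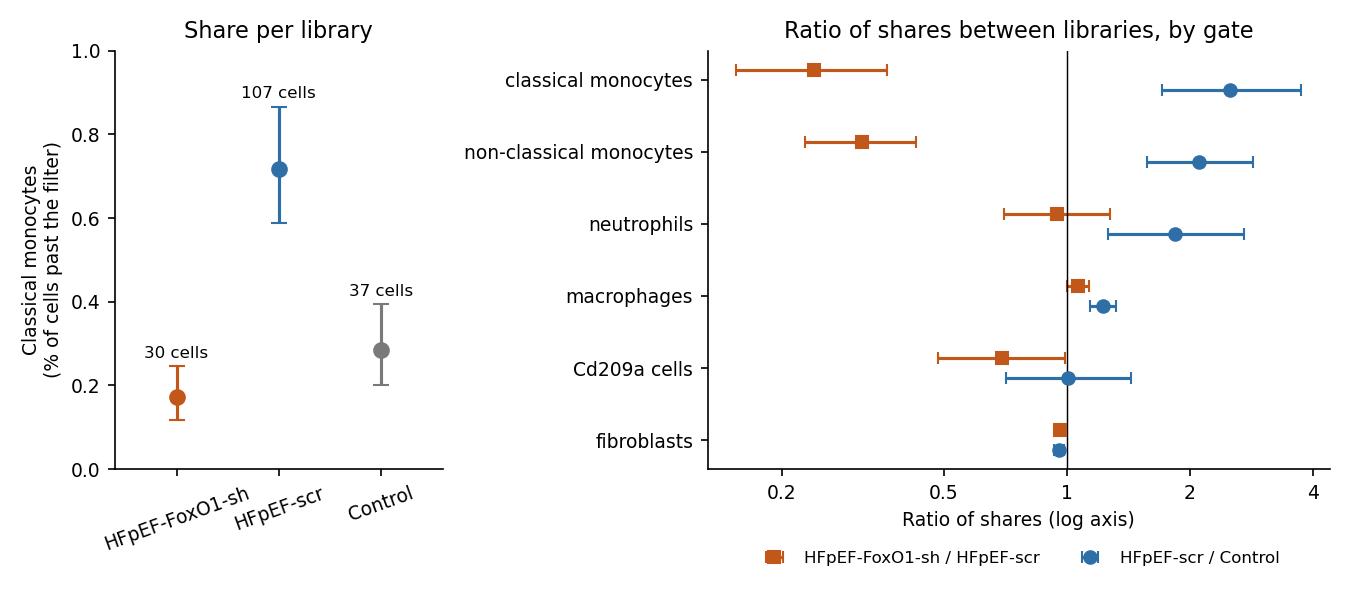
Left, classical monocytes as a percentage of cells past the filter in each library, with 95% exact binomial intervals. Right, ratios of cell shares between libraries on a log axis for 6 gates of cells, with 95% intervals for counting error; both monocyte gates lie under 1 for the library labelled HFpEF-FoxO1-sh relative to HFpEF-scr (0.240 and 0.315) and over 1 for HFpEF-scr relative to Control (2.51 and 2.11), and fibroblasts lie near 1 (0.964 and 0.954).

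Non-classical monocytes, which patrol vessel walls, had the same order of shares. Gated by at least 3 UMIs of Ace, Treml4 and Adgre4 and the same limits on Lyz2, C1q, S100a, lymphocyte genes and Cd209a, they numbered 58 in the library labelled HFpEF-FoxO1-sh, 158 in HFpEF-scr and 65 in Control, with share ratios of 0.315 (0.229 to 0.428) for the library labelled HFpEF-FoxO1-sh relative to HFpEF-scr and 2.11 (1.57 to 2.86) for HFpEF-scr relative to Control. Classical cells were 34.1% of both kinds together in the library labelled HFpEF-FoxO1-sh, 40.4% in HFpEF-scr and 36.3% in Control, with intervals that overlap in all 3 libraries. Neutrophils, here with at least 100 UMIs of S100a8 and S100a9, numbered 98 in the library labelled HFpEF-FoxO1-sh, 89 in HFpEF-scr and 42 in Control. Their share ratio was 0.944 (0.701 to 1.27) for the library labelled HFpEF-FoxO1-sh relative to HFpEF-scr and 1.84 (1.26 to 2.72) for HFpEF-scr relative to Control. Macrophages, with at least 10 C1q UMIs, numbered 2267 in the library labelled HFpEF-FoxO1-sh, 1826 in HFpEF-scr and 1295 in Control. Their ratio was 1.06 (1.00 to 1.13) for the library labelled HFpEF-FoxO1-sh relative to HFpEF-scr and 1.22 (1.14 to 1.32) for HFpEF-scr relative to Control. Cells gated by Cd209a and MHC class II genes numbered 59 in the library labelled HFpEF-FoxO1-sh, 73 in HFpEF-scr and 63 in Control. Their ratio was 0.693 (0.483 to 0.990) for the library labelled HFpEF-FoxO1-sh relative to HFpEF-scr and 1.01 (0.708 to 1.43) for HFpEF-scr relative to Control. The other gates of white blood cells thus lay nearer to 1 than the monocytes for the library labelled HFpEF-FoxO1-sh relative to HFpEF-scr, though the Cd209a gate was also under 1.

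Over all libraries together the 2 monocyte gates also differed in genes that neither gate used. Classical cells had 1001 CPM of Ccr2 against 250 CPM in non-classical cells, 553 against 68.1 CPM of F13a1 and 1413 against 243 CPM of Fn1 (fibronectin). Genes known from non-classical monocytes were lower in the classical cells, with 755 against 1214 CPM of Nr4a1, 31.3 against 185 CPM of Spn (the sialoglycoprotein CD43), 227 against 663 CPM of Itgal (an integrin) and 7.46 against 147 CPM of Eno3. Vcan, versican, was at 156 against 160 CPM and did not set the gates apart.

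The members were not all alike. In 11 of 30 cells of the library labelled HFpEF-FoxO1-sh, 6 of 107 cells of HFpEF-scr and 4 of 37 cells of Control, H2-Aa, H2-Ab1 and H2-Eb1 summed to at least 10 UMIs. These are called MHC class II-high cells, and the limit was set after seeing the data. They were 36.7% (19.9 to 56.1) of the members in the library labelled HFpEF-FoxO1-sh, 5.61% (2.09 to 11.8) in HFpEF-scr and 10.8% (3.03 to 25.4) in Control. The share ratio was 6.54 (2.22 to 21.5) for the library labelled HFpEF-FoxO1-sh relative to HFpEF-scr and 0.519 (0.123 to 2.50) for HFpEF-scr relative to Control. Sums in these cells reached 350 UMIs in the library labelled HFpEF-FoxO1-sh, 246 UMIs in HFpEF-scr and 281 UMIs in Control, and the lowest were 10 UMIs in the library labelled HFpEF-FoxO1-sh, 37 UMIs in HFpEF-scr and 39 UMIs in Control. The highest among the other members were 7 UMIs in the library labelled HFpEF-FoxO1-sh, 9 UMIs in HFpEF-scr and 7 UMIs in Control. A gap thus set the high cells apart in HFpEF-scr and Control, while 2 cells of the library labelled HFpEF-FoxO1-sh lay at the limit itself.

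The MHC class II-high cells held less Ly6c2 and Hp RNA than the other members of each library, while Ccr2 did not follow this in Control. Ly6c2 stood at 389 CPM in those of the library labelled HFpEF-FoxO1-sh, 336 CPM in those of HFpEF-scr and 72.0 CPM in those of Control. In the cells under 10 UMIs it stood at 881 CPM in the library labelled HFpEF-FoxO1-sh, 1415 CPM in HFpEF-scr and 715 CPM in Control. Hp, the gene of haptoglobin, was in the high cells at 64.8 CPM in the library labelled HFpEF-FoxO1-sh, 53.1 CPM in HFpEF-scr and 0 CPM in Control. In the others it was at 517 CPM in the library labelled HFpEF-FoxO1-sh, 735 CPM in HFpEF-scr and 366 CPM in Control. Ccr2 was in the high cells at 540 CPM in the library labelled HFpEF-FoxO1-sh, 389 CPM in HFpEF-scr and 1320 CPM in Control, and in the others at 808 CPM in the library labelled HFpEF-FoxO1-sh, 1048 CPM in HFpEF-scr and 1229 CPM in Control. Cst3, cystatin C, which dendritic cells express strongly, was in the high cells at 11812 CPM in the library labelled HFpEF-FoxO1-sh, 7364 CPM in HFpEF-scr and 11425 CPM in Control. In the others it was at 1914 CPM in the library labelled HFpEF-FoxO1-sh, 1860 CPM in HFpEF-scr and 1987 CPM in Control. A UMI of Xcr1 or Clec9a, markers of conventional dendritic cells of type 1, was found in 4 of 11 high cells of the library labelled HFpEF-FoxO1-sh, 1 of 6 of HFpEF-scr and 2 of 4 of Control. Among the others it was found in 0 cells of the library labelled HFpEF-FoxO1-sh, 0 of HFpEF-scr and 1 of Control. Some members thus hold dendritic cell markers, and the name monocyte was least well borne out for these cells.

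A second kind of member held RNA of other cell types. Marks of fibroblasts (at least 5 UMIs of Col1a1, Col3a1 and Dcn), endothelial cells (at least 3 of Cdh5, Egfl7, Kdr and Flt1) or mural cells (at least 5 of Rgs5, Acta2 and Tagln) were found in 3 cells of the library labelled HFpEF-FoxO1-sh, 12 of HFpEF-scr and 3 of Control. The 10 listed fibroblast genes summed to 3427 CPM in the library labelled HFpEF-FoxO1-sh, 3968 CPM in HFpEF-scr and 394 CPM in Control. Without both kinds of member these sums were level, at 164 CPM in the library labelled HFpEF-FoxO1-sh, 181 CPM in HFpEF-scr and 182 CPM in Control. The 7 endothelial genes summed to 983 CPM in the library labelled HFpEF-FoxO1-sh, 798 CPM in HFpEF-scr and 1702 CPM in Control. Without both kinds they summed to 29.0 CPM in the library labelled HFpEF-FoxO1-sh, 47.5 CPM in HFpEF-scr and 34.4 CPM in Control. Listed genes of cardiomyocytes summed to at most 86.7 CPM, of platelets to at most 28.8 CPM and of lymphocytes to at most 9.60 CPM in any library.

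Leaving out both kinds left 17 cells of the library labelled HFpEF-FoxO1-sh, 90 of HFpEF-scr and 30 of Control, and values in these remaining cells are given below beside those of all members for most lists and genes. This choice was made after seeing the data. Red cell RNA did not follow the split. The 5 listed genes summed over all members to 130 CPM in the library labelled HFpEF-FoxO1-sh, 664 CPM in HFpEF-scr and 75.9 CPM in Control. Among the remaining cells they summed to 155 CPM in the library labelled HFpEF-FoxO1-sh, 836 CPM in HFpEF-scr and 78.5 CPM in Control. A single HFpEF-scr cell held 72.5% of that library's 334 UMIs of Hbb-bs, a haemoglobin chain.

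**Figure D2:**
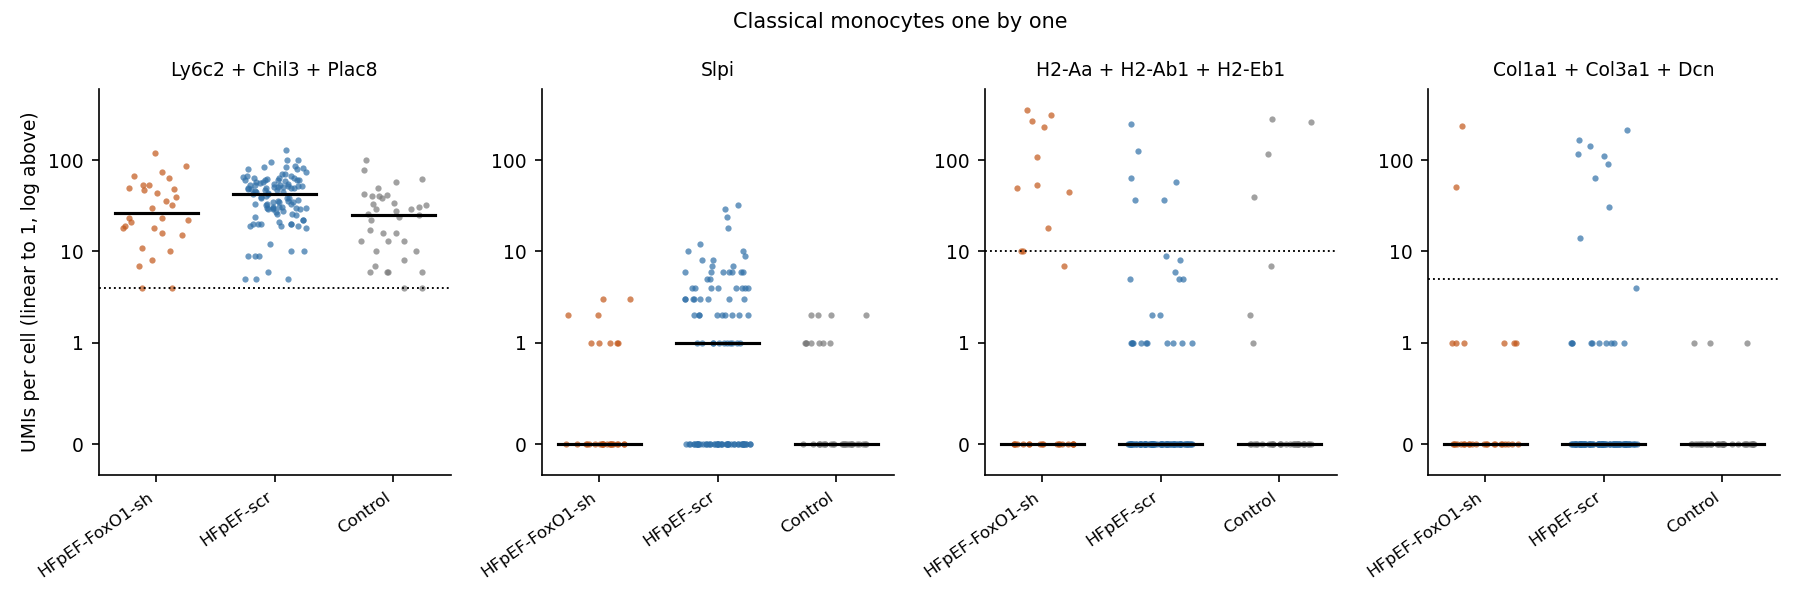
UMIs per cell (linear to 1, log above) in every classical monocyte of the 3 libraries, with medians as black bars and limits as dotted lines. From left to right, the panels show the rule sum, Slpi, the MHC class II sum and the fibroblast sum. The MHC class II limit is reached by 11 of 30 cells in the library labelled HFpEF-FoxO1-sh, 6 of 107 in HFpEF-scr and 4 of 37 in Control. The fibroblast limit is reached by 2 cells in the library labelled HFpEF-FoxO1-sh, 9 in HFpEF-scr and 0 in Control. Slpi reaches 3 UMIs in the library labelled HFpEF-FoxO1-sh, 32 UMIs in HFpEF-scr and 2 UMIs in Control.

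Gene levels were compared as CPM of the UMIs summed over members. A gene counts as measured with 40 or more UMIs in the 2 libraries together. It is called higher or lower where the ratio of CPM reached 1.5 in either direction and the interval excluded 1. In the library labelled HFpEF-FoxO1-sh relative to HFpEF-scr, 4% of 3254 measured genes were higher and 7.19% were lower. In HFpEF-scr relative to Control, 5.49% of 3335 measured genes were higher and 2.76% were lower. In the remaining cells 2.91% were higher and 3.6% lower of 2304 genes for the library labelled HFpEF-FoxO1-sh relative to HFpEF-scr, and 4.66% higher and 2.23% lower of 2552 genes for HFpEF-scr relative to Control. The median log2 ratio of all measured genes was −0.10 for the library labelled HFpEF-FoxO1-sh relative to HFpEF-scr and 0.06 for HFpEF-scr relative to Control, and −0.03 and 0.06 in the remaining cells. Both comparisons use HFpEF-scr, so a gene that stood high there tends to be higher in one and lower in the other. Intervals treat UMIs as independent although UMIs of 1 cell come together.

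Several genes of the classical monocyte programme were lower in the library labelled HFpEF-FoxO1-sh than in HFpEF-scr, and some were higher in HFpEF-scr than in Control. Of 23 listed members outside the rule, all measured, 1 was higher and 10 were lower in the library labelled HFpEF-FoxO1-sh relative to HFpEF-scr, with a median log2 ratio of −0.47, where 4% and 7.19% of all measured genes were higher and lower. In HFpEF-scr relative to Control 5 were higher and 1 was lower (median 0.22), where the shares of all genes are 5.49% and 2.76%. In the remaining cells 0 were higher and 2 lower (median −0.09) for the library labelled HFpEF-FoxO1-sh relative to HFpEF-scr and 4 higher and 0 lower (median 0.14) for HFpEF-scr relative to Control. Without the MHC class II-high cells and those with other cells' RNA, 8 of the 10 lower calls for the library labelled HFpEF-FoxO1-sh relative to HFpEF-scr were thus gone. Over all measured genes the share of lower calls also fell, from 7.19% to 3.6%. That library then held 17 cells in place of 30, and the part of lost depth in the lost calls was not tested.

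Hp, an acute-phase protein that binds free haemoglobin, had 77 UMIs in the library labelled HFpEF-FoxO1-sh (335 CPM), 574 in HFpEF-scr (689 CPM) and 86 in Control (311 CPM). Its ratio was 0.486 (0.378 to 0.618) for the library labelled HFpEF-FoxO1-sh relative to HFpEF-scr and 2.22 (1.76 to 2.81) for HFpEF-scr relative to Control. Among the remaining cells it was 0.863, no longer past the fold, and 1.85. Hp was thus highest in HFpEF-scr. Cd14, the coreceptor for bacterial lipopolysaccharide, was at 178 CPM in the library labelled HFpEF-FoxO1-sh, 461 CPM in HFpEF-scr and 224 CPM in Control, with ratios of 0.387 (0.273 to 0.535) for the library labelled HFpEF-FoxO1-sh relative to HFpEF-scr and 2.06 (1.57 to 2.74) for HFpEF-scr relative to Control. Both Cd14 calls were kept in the remaining cells, at 0.593 and 1.82. Fn1 was at 774 CPM in the library labelled HFpEF-FoxO1-sh, 1665 CPM in HFpEF-scr and 1185 CPM in Control. Its ratio of 0.465 (0.396 to 0.544) was 0.645 in the remaining cells, and its ratio of HFpEF-scr relative to Control was 1.40 (1.24 to 1.59), under the fold.

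Ccr2, the chemokine receptor of these cells (ENSMUSG00000049103; mm10, chromosome 9, 124101950 to 124113557, plus strand), was highest in Control. It had 161 UMIs in the library labelled HFpEF-FoxO1-sh (700 CPM), 836 in HFpEF-scr (1003 CPM) and 344 in Control (1243 CPM). The ratios, 0.698 (0.586 to 0.827) for the library labelled HFpEF-FoxO1-sh relative to HFpEF-scr and 0.807 (0.711 to 0.918) for HFpEF-scr relative to Control, were both under 1 and short of the fold. Ms4a4c, Ifitm6, Csf1r and Itgam, also genes of classical monocytes, were past the fold in neither comparison. Cxcr4, a chemokine receptor that holds cells in the marrow, was at 344 CPM in the library labelled HFpEF-FoxO1-sh, 580 CPM in HFpEF-scr and 549 CPM in Control. For the library labelled HFpEF-FoxO1-sh relative to HFpEF-scr its ratio was 0.593 (0.461 to 0.753), and 0.753 in the remaining cells. S100a4, a calcium-binding protein, was at 2353 CPM in the library labelled HFpEF-FoxO1-sh, 4257 CPM in HFpEF-scr and 3295 CPM in Control. The ratio for the library labelled HFpEF-FoxO1-sh relative to HFpEF-scr, 0.553 (0.504 to 0.605), was 0.757 in the remaining cells. Irf8, a transcription factor of monocytes and type 1 dendritic cells, was the 1 higher gene, at 391 CPM in the library labelled HFpEF-FoxO1-sh, 168 CPM in HFpEF-scr and 282 CPM in Control, and its ratio of 2.33 (1.77 to 3.06) was 1.02 in the remaining cells. The ratios of Cxcr4, S100a4 and Irf8 thus all came within the fold when those members were left out.

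Slpi was highest in HFpEF-scr. It encodes a secreted inhibitor of the proteases of neutrophils (ENSMUSG00000017002; mm10, chromosome 2, 164354070 to 164389095, minus strand). It had 15 UMIs in 9 cells of the library labelled HFpEF-FoxO1-sh (65.2 CPM), 311 UMIs in 57 cells of HFpEF-scr (373 CPM) and 15 UMIs in 11 cells of Control (54.2 CPM). Its ratio was 0.175 (0.0966 to 0.293) for the library labelled HFpEF-FoxO1-sh relative to HFpEF-scr and 6.89 (4.11 to 12.5) for HFpEF-scr relative to Control, and 0.321 and 6.13 in the remaining cells.

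The share of cells with a Slpi UMI was 30% in the library labelled HFpEF-FoxO1-sh, 53.3% in HFpEF-scr and 29.7% in Control. Thinned to 2000 UMIs per cell, which left out 1 cell of the library labelled HFpEF-FoxO1-sh, the shares were 10.3% in the library labelled HFpEF-FoxO1-sh, 34.6% in HFpEF-scr and 8.11% in Control. At most 0.476% of fibroblasts held one, and at most 0.239% of thinned fibroblasts. Neutrophils held 1797 CPM in the library labelled HFpEF-FoxO1-sh, 1471 CPM in HFpEF-scr and 1331 CPM in Control. Non-classical monocytes held 35.4 CPM in the library labelled HFpEF-FoxO1-sh, 97.7 CPM in HFpEF-scr and 79.3 CPM in Control, with a ratio of 1.23 (0.843 to 1.84) for HFpEF-scr relative to Control. Of the 21 genes of the neutrophil and granule list, 5 were measured, and Slpi, Mmp8 and Cd177 were higher in HFpEF-scr than in Control. That is 3 higher and 0 lower, beside 5.49% and 2.76% of all measured genes, and 2 and 0 in the remaining cells. For the library labelled HFpEF-FoxO1-sh relative to HFpEF-scr 0 were higher and 2 lower of 5 (median −0.87). Beside this stand 4% and 7.19% of all measured genes, and in the remaining cells 0 were higher and 1 lower. The list summed to 1022 CPM in the library labelled HFpEF-FoxO1-sh, 1782 CPM in HFpEF-scr and 1124 CPM in Control. S100a8 and S100a9 were limited by the rule. The part of neutrophil RNA in these Slpi values was not tested.

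Some genes of inflammation were higher in HFpEF-scr than in the other libraries. Of 24 measured members of the list of inflammation and the factor NF-kB, 1 was higher and 8 were lower in the library labelled HFpEF-FoxO1-sh relative to HFpEF-scr (median −0.40), and 1 and 5 of 22 in the remaining cells (median −0.38). Of 25 measured in HFpEF-scr relative to Control, 6 were higher and none lower (median 0.23), and 5 and 1 of 24 in the remaining cells (median 0.14). Of all measured genes, 4% were higher and 7.19% lower for the library labelled HFpEF-FoxO1-sh relative to HFpEF-scr, and 5.49% higher and 2.76% lower for HFpEF-scr relative to Control.

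Ier3, an early stress gene, was at 152 CPM in the library labelled HFpEF-FoxO1-sh, 470 CPM in HFpEF-scr and 235 CPM in Control. Its ratios were 0.324 (0.222 to 0.458) for the library labelled HFpEF-FoxO1-sh relative to HFpEF-scr and 2.00 (1.54 to 2.65) for HFpEF-scr relative to Control, and 0.351 and 2.53 in the remaining cells. Tnfaip2, induced by tumour necrosis factor, was at 109 CPM in the library labelled HFpEF-FoxO1-sh, 217 CPM in HFpEF-scr and 101 CPM in Control, with ratios of 0.501 (0.316 to 0.763) for the library labelled HFpEF-FoxO1-sh relative to HFpEF-scr and 2.15 (1.44 to 3.32) for HFpEF-scr relative to Control. Both genes kept their calls in the remaining cells. Osm, the cytokine oncostatin M, was at 91.3 CPM in the library labelled HFpEF-FoxO1-sh, 197 CPM in HFpEF-scr and 108 CPM in Control, and its ratio of HFpEF-scr relative to Control was 1.82 (1.23 to 2.78). Ptgs2, the prostaglandin synthase COX-2, was at 126 CPM in the library labelled HFpEF-FoxO1-sh, 172 CPM in HFpEF-scr and 83.1 CPM in Control, with a ratio of 2.06 (1.32 to 3.36) for HFpEF-scr relative to Control, and a single HFpEF-scr cell held 28% of its UMIs there. Among the remaining cells Ptgs2 was also lower in the library labelled HFpEF-FoxO1-sh relative to HFpEF-scr, at 0.473 (0.222 to 0.898). Over all members Ptgs2 was not called in that comparison, and its 29 UMIs in the library labelled HFpEF-FoxO1-sh came from 4 cells. Its log2 ratio there, −0.44, turned to 0.20 with the 10% mitochondrial limit and to 0.25 with a rule sum of at least 8.

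The cytokines Il1b and Tnf gave no call. Il1b, interleukin 1 beta, was at 696 CPM in the library labelled HFpEF-FoxO1-sh, 546 CPM in HFpEF-scr and 784 CPM in Control. For HFpEF-scr relative to Control the ratio was 0.696 (0.591 to 0.822), short of the fold. Tnf, tumour necrosis factor, had only 4 UMIs in the library labelled HFpEF-FoxO1-sh, 32 UMIs in HFpEF-scr and 8 UMIs in Control, and at this depth a difference was not detectable.

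Some receptors that sense microbes, damage and cytokines were higher in HFpEF-scr than in Control. Of 36 measured members of the list of innate and cytokine receptors, 6 were higher and 0 lower (median 0.21), against 5.49% and 2.76% of all measured genes, and 4 and 0 of 31 in the remaining cells. In the library labelled HFpEF-FoxO1-sh relative to HFpEF-scr 0 were higher and 5 lower of 35 (median −0.22), against 4% and 7.19% of all genes, and 1 and 1 of 29 in the remaining cells, where the median turned to 0.09. Clec4e, the receptor Mincle, had 13 UMIs in the library labelled HFpEF-FoxO1-sh (56.5 CPM), 121 in HFpEF-scr (145 CPM) and 13 in Control (47.0 CPM). Its ratio of 3.09 (1.74 to 5.97) for HFpEF-scr relative to Control was 2.63 in the remaining cells. The ratio of 0.389 (0.202 to 0.691) for the library labelled HFpEF-FoxO1-sh relative to HFpEF-scr was 0.576 and no longer past the fold with its interval. These receptor calls rest on few UMIs in the smaller libraries. Ly96, the partner of the lipopolysaccharide receptor, had 5 UMIs in the library labelled HFpEF-FoxO1-sh, 41 UMIs in HFpEF-scr and 2 UMIs in Control, with a ratio of 6.81 (1.77 to 58.1) for HFpEF-scr relative to Control, and in the remaining cells it fell short of 40 UMIs and was not measured. Ifnar1, a chain of the type I interferon receptor, had 7 UMIs in the library labelled HFpEF-FoxO1-sh, 60 UMIs in HFpEF-scr and 6 UMIs in Control, with ratios of 0.423 (0.163 to 0.926) for the library labelled HFpEF-FoxO1-sh relative to HFpEF-scr and 3.32 (1.44 to 9.41) for HFpEF-scr relative to Control. Of these Ifnar1 calls only that of HFpEF-scr relative to Control was kept in the remaining cells, at 3.63 (1.32 to 13.9).

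Chemokines and their receptors differed in both directions. Of 15 measured members of the list, 2 were higher and 5 lower in the library labelled HFpEF-FoxO1-sh relative to HFpEF-scr (median −0.48), and 4 higher and 2 lower in HFpEF-scr relative to Control (median 0.09). Of all measured genes, 4% were higher and 7.19% lower in the first comparison, and 5.49% higher and 2.76% lower in the second. In the remaining cells 1 was higher and 2 lower of 13 (median −0.28) for the library labelled HFpEF-FoxO1-sh relative to HFpEF-scr, and 4 and 1 of 13 (median 0.14) for HFpEF-scr relative to Control. The median of −0.48 turned to 0.07 with a rule sum of at least 8. Cxcl2, which attracts neutrophils, was lowest in HFpEF-scr, with 509 CPM in the library labelled HFpEF-FoxO1-sh, 301 CPM in HFpEF-scr and 820 CPM in Control. It came from 5 cells in the library labelled HFpEF-FoxO1-sh, 22 cells in HFpEF-scr and 12 cells in Control, and a single cell held 45.3% of its UMIs in the library labelled HFpEF-FoxO1-sh. It had ratios of 1.69 (1.34 to 2.11) for the library labelled HFpEF-FoxO1-sh relative to HFpEF-scr and 0.367 (0.306 to 0.441) for HFpEF-scr relative to Control. Ccl4, an attractant of lymphocytes and monocytes, was at 435 CPM in the library labelled HFpEF-FoxO1-sh, 446 CPM in HFpEF-scr and 282 CPM in Control, with a ratio of 1.58 (1.24 to 2.05) for HFpEF-scr relative to Control. The monocyte attractant Ccl3 was at 648 CPM in the library labelled HFpEF-FoxO1-sh, 721 CPM in HFpEF-scr and 564 CPM in Control and past the fold in neither. Ccl24, an eotaxin, was carried by few cells, as its 50 UMIs in Control came from 3 cells.

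**Figure D3:**
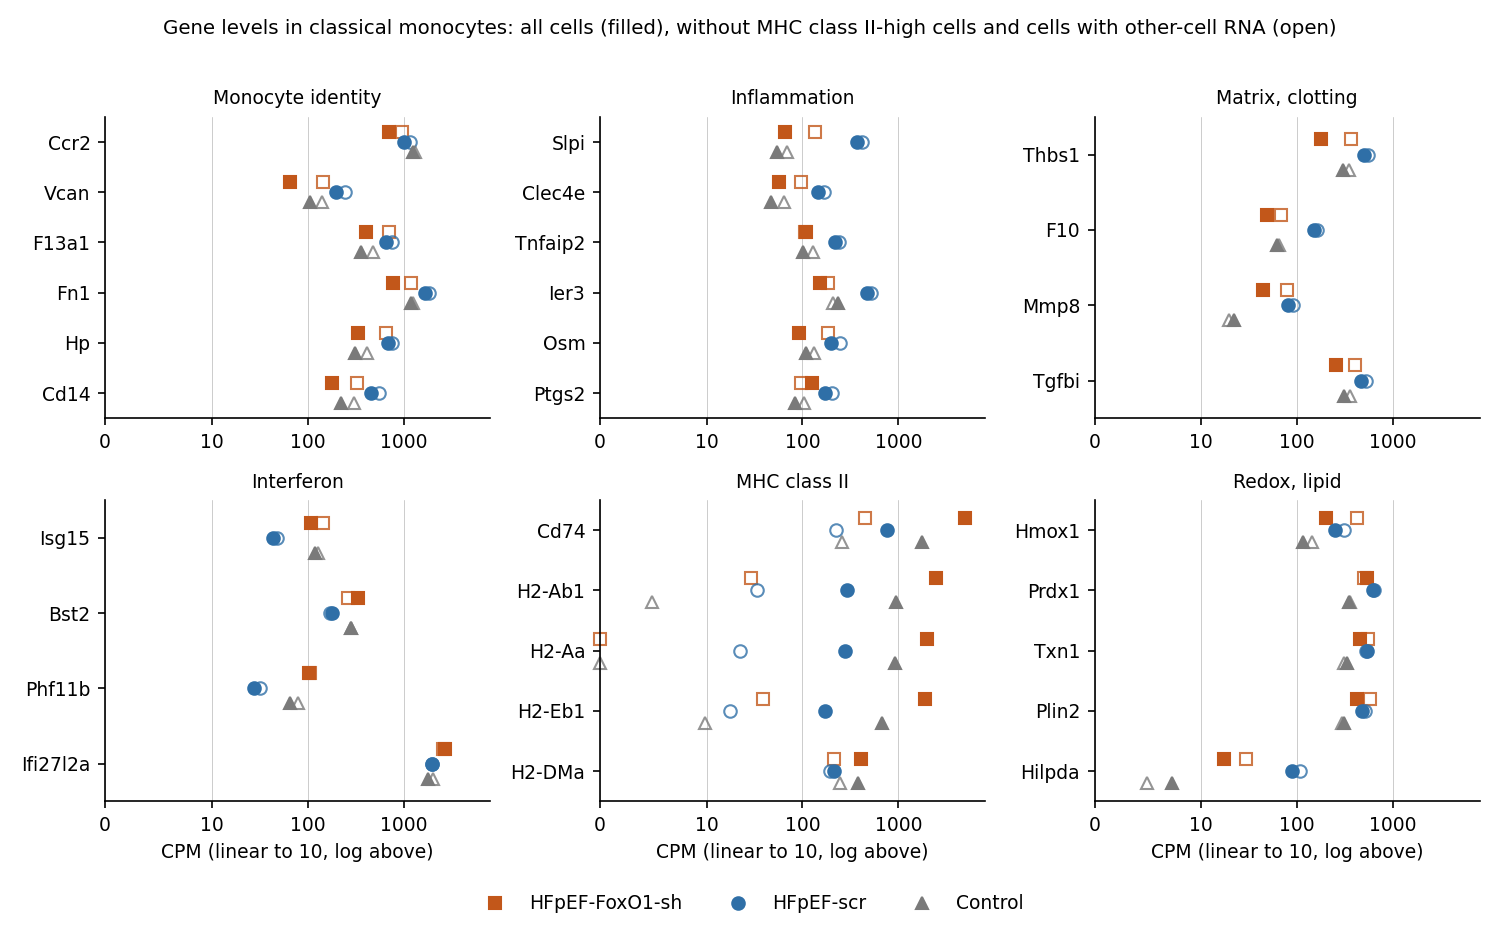
CPM (linear to 10, log above) of 30 genes in the classical monocytes of the 3 libraries. Filled points are all members, open points the members left without MHC class II-high cells and cells with other-cell RNA; the MHC class II genes differ widely between filled and open marks, while Slpi is highest in HFpEF-scr in both.

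Genes for matrix, clotting and repair were mostly highest in HFpEF-scr. Of 11 measured members of the list in HFpEF-scr relative to Control, 7 were higher and 0 lower (median 0.71), and 5 and 0 of 9 in the remaining cells (median 0.67), against a median of 0.06 over all genes. In the library labelled HFpEF-FoxO1-sh relative to HFpEF-scr 1 was higher and 7 were lower of 13 (median −0.85), and 0 and 2 of 9 in the remaining cells (median −0.44). Among all measured genes, 5.49% were higher and 2.76% lower for HFpEF-scr relative to Control, and 4.66% and 2.23% in the remaining cells. For the library labelled HFpEF-FoxO1-sh relative to HFpEF-scr these shares were 4% and 7.19%, and 2.91% and 3.6% in the remaining cells. The list shares F13a1, Fn1 and Vcan with the classical monocyte list.

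F10, clotting factor X, had 11 UMIs in 6 cells of the library labelled HFpEF-FoxO1-sh (47.8 CPM), 126 UMIs in 54 cells of HFpEF-scr (151 CPM) and 17 UMIs in 10 cells of Control (61.4 CPM). It had ratios of 0.316 (0.154 to 0.586) for the library labelled HFpEF-FoxO1-sh relative to HFpEF-scr and 2.46 (1.48 to 4.36) for HFpEF-scr relative to Control, and both calls were kept in the remaining cells, at 0.423 and 2.51. F13a1 was at 404 CPM in the library labelled HFpEF-FoxO1-sh, 658 CPM in HFpEF-scr and 361 CPM in Control. Its ratio of 0.615 (0.488 to 0.767) for the library labelled HFpEF-FoxO1-sh relative to HFpEF-scr was 0.930 in the remaining cells, while that of HFpEF-scr relative to Control, 1.82 (1.47 to 2.28), was 1.59. Thbs1, thrombospondin 1, which activates transforming growth factor beta, was at 178 CPM in the library labelled HFpEF-FoxO1-sh, 498 CPM in HFpEF-scr and 304 CPM in Control, with ratios of 0.358 (0.253 to 0.494) for the library labelled HFpEF-FoxO1-sh relative to HFpEF-scr and 1.64 (1.29 to 2.10) for HFpEF-scr relative to Control. Vcan was at 65.2 CPM in the library labelled HFpEF-FoxO1-sh, 198 CPM in HFpEF-scr and 105 CPM in Control, with ratios of 0.329 (0.180 to 0.559) for the library labelled HFpEF-FoxO1-sh relative to HFpEF-scr and 1.89 (1.27 to 2.91) for HFpEF-scr relative to Control. Among the remaining cells the Thbs1 and Vcan calls were kept for HFpEF-scr relative to Control (1.59 and 1.71) and gone for the library labelled HFpEF-FoxO1-sh relative to HFpEF-scr (0.670 and 0.594). Mmp8, a collagenase, had 10 UMIs in the library labelled HFpEF-FoxO1-sh, 67 UMIs in HFpEF-scr and 6 UMIs in Control, with a ratio of 3.71 (1.62 to 10.5) for HFpEF-scr relative to Control.

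Thbs1 and Vcan are also fibroblast genes. A Thbs1 UMI was found in 26.7% of monocytes of the library labelled HFpEF-FoxO1-sh, 49.5% in HFpEF-scr and 32.4% in Control. In fibroblasts the shares were 30.9% in the library labelled HFpEF-FoxO1-sh, 34.2% in HFpEF-scr and 32.5% in Control. A Vcan UMI was found in 16.7% of monocytes in the library labelled HFpEF-FoxO1-sh, 49.5% in HFpEF-scr and 21.6% in Control, below its share in fibroblasts of every library (at least 68.1%). No order is read from these shares. The part of free RNA in these levels was not tested. F10, at most 0.0465 CPM in fibroblasts and 2.83 CPM in neutrophils of any library, stood in non-classical monocytes at 31.0 CPM in the library labelled HFpEF-FoxO1-sh, 67.8 CPM in HFpEF-scr and 21.4 CPM in Control, with a ratio of 3.16 (1.63 to 6.86) there for HFpEF-scr relative to Control.

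A few interferon-stimulated genes were lowest in HFpEF-scr. Of 25 measured members of the type I list, 4 were higher and 0 lower in the library labelled HFpEF-FoxO1-sh relative to HFpEF-scr (median 0.14), against 4% and 7.19% of all genes, and 2 and 0 of 18 in the remaining cells (median 0.22). The median was −0.0025 when only members with other-cell RNA were left out. Of 26 measured in HFpEF-scr relative to Control, 0 were higher and 3 lower (median 0.00), against 5.49% and 2.76% of all genes, and 0 and 2 of 19 in the remaining cells. Isg15, a ubiquitin-like protein made on interferon signals (ENSMUSG00000035692; mm10, chromosome 4, 156199424 to 156200818, minus strand), had 25 UMIs in the library labelled HFpEF-FoxO1-sh (109 CPM), 36 in HFpEF-scr (43.2 CPM) and 33 in Control (119 CPM). Its ratio was 2.52 (1.45 to 4.31) for the library labelled HFpEF-FoxO1-sh relative to HFpEF-scr and 0.362 (0.220 to 0.600) for HFpEF-scr relative to Control, and 3.05 and 0.372 in the remaining cells. Bst2, tetherin, was at 339 CPM in the library labelled HFpEF-FoxO1-sh, 181 CPM in HFpEF-scr and 286 CPM in Control, with ratios of 1.87 (1.41 to 2.48) for the library labelled HFpEF-FoxO1-sh relative to HFpEF-scr and 0.635 (0.480 to 0.844) for HFpEF-scr relative to Control, but its order between HFpEF-scr and Control turned round with the 10% mitochondrial limit. Bst2 was no longer called in the remaining cells for the library labelled HFpEF-FoxO1-sh relative to HFpEF-scr, at 1.51 (0.953 to 2.32). Phf11b had 24 UMIs in the library labelled HFpEF-FoxO1-sh, 23 UMIs in HFpEF-scr and 18 UMIs in Control, with ratios of 3.78 (2.04 to 7.01) for the library labelled HFpEF-FoxO1-sh relative to HFpEF-scr and 0.424 (0.219 to 0.835) for HFpEF-scr relative to Control, and it was not measured in the remaining cells.

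An Isg15 UMI was found in 43.3% of cells of the library labelled HFpEF-FoxO1-sh, 17.8% of HFpEF-scr and 35.1% of Control, against at most 13.7% of fibroblasts in any library. Thinned, the shares were 20.7% in the library labelled HFpEF-FoxO1-sh, 3.74% in HFpEF-scr and 18.9% in Control. The thinned share in HFpEF-scr lay under the 4.58% of its fibroblasts, so no expression is read from it. At least 3 UMIs over Isg15, Ifit1, Ifit2, Ifit3, Rsad2, Irf7, Oasl2 and Usp18 were found in 33.3% of cells in the library labelled HFpEF-FoxO1-sh, 31.8% in HFpEF-scr and 27% in Control. After thinning the shares were 17.2% in the library labelled HFpEF-FoxO1-sh, 4.67% in HFpEF-scr and 8.11% in Control. Neutrophils also had their lowest Isg15 level in HFpEF-scr, while the order of the other libraries differed from that in the monocytes. They held 410 CPM in the library labelled HFpEF-FoxO1-sh, 81.9 CPM in HFpEF-scr and 147 CPM in Control. Their ratio was 5.01 (3.52 to 7.26) for the library labelled HFpEF-FoxO1-sh relative to HFpEF-scr and 0.557 (0.341 to 0.919) for HFpEF-scr relative to Control. Macrophages were at 46.4 CPM in the library labelled HFpEF-FoxO1-sh, 37.6 CPM in HFpEF-scr and 39.2 CPM in Control. The response element of interferon signals, a pair of GAAA words with any 2 bases between them, stood in 16 of the 32 matched promoters of the type I list and in 943 of all 27025 (3.49%), on either strand.

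MHC class II genes were higher in the library labelled HFpEF-FoxO1-sh than in HFpEF-scr, and in HFpEF-scr they were lower than in Control. Of 8 measured members of the list of MHC class II and costimulation genes, 6 were higher and 0 lower (median 1.82) for the library labelled HFpEF-FoxO1-sh relative to HFpEF-scr, and 0 higher and 6 lower (median −1.02) for HFpEF-scr relative to Control. The shares of all measured genes were 4% higher and 7.19% lower in the first comparison, and 5.49% and 2.76% in the second. Among the remaining cells these shares were 2.91% and 3.6% in the first and 4.66% and 2.23% in the second. H2-Ab1 had 566 UMIs in 12 cells of the library labelled HFpEF-FoxO1-sh (2462 CPM), 244 UMIs in 17 cells of HFpEF-scr (293 CPM) and 263 UMIs in 6 cells of Control (950 CPM). The genes whose promoters are printed above had the same order. H2-Aa was at 1979 CPM in the library labelled HFpEF-FoxO1-sh, 278 CPM in HFpEF-scr and 932 CPM in Control. H2-Eb1 was at 1909 CPM in the library labelled HFpEF-FoxO1-sh, 173 CPM in HFpEF-scr and 676 CPM in Control. For H2-Aa these are ratios of 7.11 (6.06 to 8.36) for the library labelled HFpEF-FoxO1-sh relative to HFpEF-scr and 0.299 (0.249 to 0.358) for HFpEF-scr relative to Control. These levels came from few cells, and in the remaining cells, which the limit on these very genes defines, 0 of 5 were past the fold in HFpEF-scr relative to Control and 1 of 3 in the library labelled HFpEF-FoxO1-sh relative to HFpEF-scr.

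The 1 gene that kept its call was Cd74, the invariant chain that escorts MHC class II, at 4971 CPM in the library labelled HFpEF-FoxO1-sh, 763 CPM in HFpEF-scr and 1767 CPM in Control. Its ratio of 6.51 (5.91 to 7.19) for the library labelled HFpEF-FoxO1-sh relative to HFpEF-scr was 2.05 in the remaining cells. At least 3 UMIs over H2-Aa, H2-Ab1, H2-Eb1 and Cd74 were found in 50% of cells in the library labelled HFpEF-FoxO1-sh, 20.6% in HFpEF-scr and 32.4% in Control. After thinning the shares were 44.8% in the library labelled HFpEF-FoxO1-sh, 12.1% in HFpEF-scr and 16.2% in Control, against at most 0.901% of thinned fibroblasts. H2-Ab1 in macrophages, which present antigen as well, stood at 4729 CPM in the library labelled HFpEF-FoxO1-sh, 4277 CPM in HFpEF-scr and 3742 CPM in Control. In non-classical monocytes it stood at 891 CPM in the library labelled HFpEF-FoxO1-sh, 600 CPM in HFpEF-scr and 600 CPM in Control.

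Some genes of iron handling and oxidative stress were higher in HFpEF-scr than in Control. Of 24 measured, 5 were higher and 0 lower (median 0.18), against 5.49% and 2.76% of all measured genes, and 4 and 0 of 23 in the remaining cells. Hmox1, the enzyme that breaks down haem, was at 200 CPM in the library labelled HFpEF-FoxO1-sh, 247 CPM in HFpEF-scr and 116 CPM in Control, with a ratio of 2.14 (1.47 to 3.21) for HFpEF-scr relative to Control. Prdx1, a peroxide scavenger, was at 535 CPM in the library labelled HFpEF-FoxO1-sh, 620 CPM in HFpEF-scr and 350 CPM in Control, with a ratio of 1.77 (1.42 to 2.22) for HFpEF-scr relative to Control. Both calls were kept in the remaining cells, at 2.15 and 1.79. Red cell RNA was also higher in HFpEF-scr, at 664 CPM against 75.9 CPM in Control, and its part in these values was not tested. In the library labelled HFpEF-FoxO1-sh relative to HFpEF-scr 0 were higher and 3 lower of 24 (median −0.25), against 4% and 7.19%, and 0 and 1 of 23 in the remaining cells (median −0.08).

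Few genes of lipid handling were past the fold. Of 17 measured in HFpEF-scr relative to Control, 2 were higher and 2 lower (median 0.04), and of 15 in the library labelled HFpEF-FoxO1-sh relative to HFpEF-scr 1 was higher and 3 were lower (median −0.11). Of all measured genes 5.49% were higher and 2.76% lower for HFpEF-scr relative to Control, and 4% and 7.19% for the library labelled HFpEF-FoxO1-sh relative to HFpEF-scr, and counts this small are not read as a difference of the list. Plin2, which coats lipid droplets, was at 422 CPM in the library labelled HFpEF-FoxO1-sh, 478 CPM in HFpEF-scr and 307 CPM in Control, with a ratio of 1.56 (1.23 to 1.99) for HFpEF-scr relative to Control. Hilpda, an inhibitor of lipid breakdown induced by low oxygen, had 4 UMIs in 2 cells of the library labelled HFpEF-FoxO1-sh, 73 in 23 cells of HFpEF-scr and 2 in 2 cells of Control. A single HFpEF-scr cell held 30 of these UMIs. A Hilpda UMI was found in 6.67% of monocytes in the library labelled HFpEF-FoxO1-sh, 21.5% in HFpEF-scr and 5.41% in Control, and in at least 13.6% of fibroblasts in every library. The part of free RNA in these shares was not tested.

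Genes of macrophage maturation differed in both directions. Of 21 measured members, 1 was higher and 4 were lower in the library labelled HFpEF-FoxO1-sh relative to HFpEF-scr (median −0.09), and 5 were higher and 0 lower in HFpEF-scr relative to Control (median 0.22), where 4% and 7.19% of all genes were higher and lower in the first comparison and 5.49% and 2.76% in the second. Counted in the remaining cells, 1 was higher and 1 lower of 17 for the library labelled HFpEF-FoxO1-sh relative to HFpEF-scr, and 1 higher and 2 lower of 18 for HFpEF-scr relative to Control (median −0.01), so the larger number of higher calls was not kept. Maf, a transcription factor of macrophages, was at 65.2 CPM in the library labelled HFpEF-FoxO1-sh, 90.0 CPM in HFpEF-scr and 18.1 CPM in Control, with a ratio of 4.98 (2.04 to 15.8) for HFpEF-scr relative to Control. Apoe, the apolipoprotein of macrophages, was at 2514 CPM in the library labelled HFpEF-FoxO1-sh, 1004 CPM in HFpEF-scr and 1145 CPM in Control, with a ratio of 2.50 (2.25 to 2.79) for the library labelled HFpEF-FoxO1-sh relative to HFpEF-scr. An Apoe UMI was found in 86.7% of monocytes in the library labelled HFpEF-FoxO1-sh, 57% in HFpEF-scr and 83.8% in Control. In fibroblasts the shares were 84.8% in the library labelled HFpEF-FoxO1-sh, 78.4% in HFpEF-scr and 88.3% in Control. The part of free RNA in these Apoe values was not tested. In the remaining cells the Apoe ratio was 4.90 for the library labelled HFpEF-FoxO1-sh relative to HFpEF-scr and 0.421 for HFpEF-scr relative to Control. The order between HFpEF-scr and Control depended on the cell filter. Over all members the log2 ratio of Apoe there was −0.19, and it turned to 1.60 with the 10% mitochondrial limit.

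Lists of metabolism and protein folding held few calls. Of 44 measured nuclear genes of oxidative phosphorylation, 0 were higher and 1 was lower in the library labelled HFpEF-FoxO1-sh relative to HFpEF-scr, and 0 were past the fold in HFpEF-scr relative to Control. Of the genes of the unfolded protein response, 0 of 20 were past the fold for the library labelled HFpEF-FoxO1-sh relative to HFpEF-scr and 1 of 20, Pdia6, was lower for HFpEF-scr relative to Control. Of the glycolysis and hypoxia genes, 1 of 17 was lower for the library labelled HFpEF-FoxO1-sh relative to HFpEF-scr (Pkm, a pyruvate kinase) and 0 of 18 were past the fold for HFpEF-scr relative to Control. Among FoxO factors and genes they are known to regulate, the counts were small. There 0 were higher and 2 lower of 14 in the library labelled HFpEF-FoxO1-sh relative to HFpEF-scr (one of them Gadd45a, median −0.09), and 1 was higher and 0 lower of 15 in HFpEF-scr relative to Control (Sqstm1, median 0.29), beside 4% higher and 7.19% lower of all genes in the first comparison and 5.49% and 2.76% in the second. In the remaining cells these calls were gone, and others took their place, Cdkn1a higher for the library labelled HFpEF-FoxO1-sh relative to HFpEF-scr and Gadd45a higher and Cited2 lower for HFpEF-scr relative to Control. Foxo3, another FoxO factor, had 6 UMIs in the library labelled HFpEF-FoxO1-sh, 24 UMIs in HFpEF-scr and 8 UMIs in Control. That is 26.1 CPM in the library labelled HFpEF-FoxO1-sh, 28.8 CPM in HFpEF-scr and 28.9 CPM in Control.

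**Figure D4:**
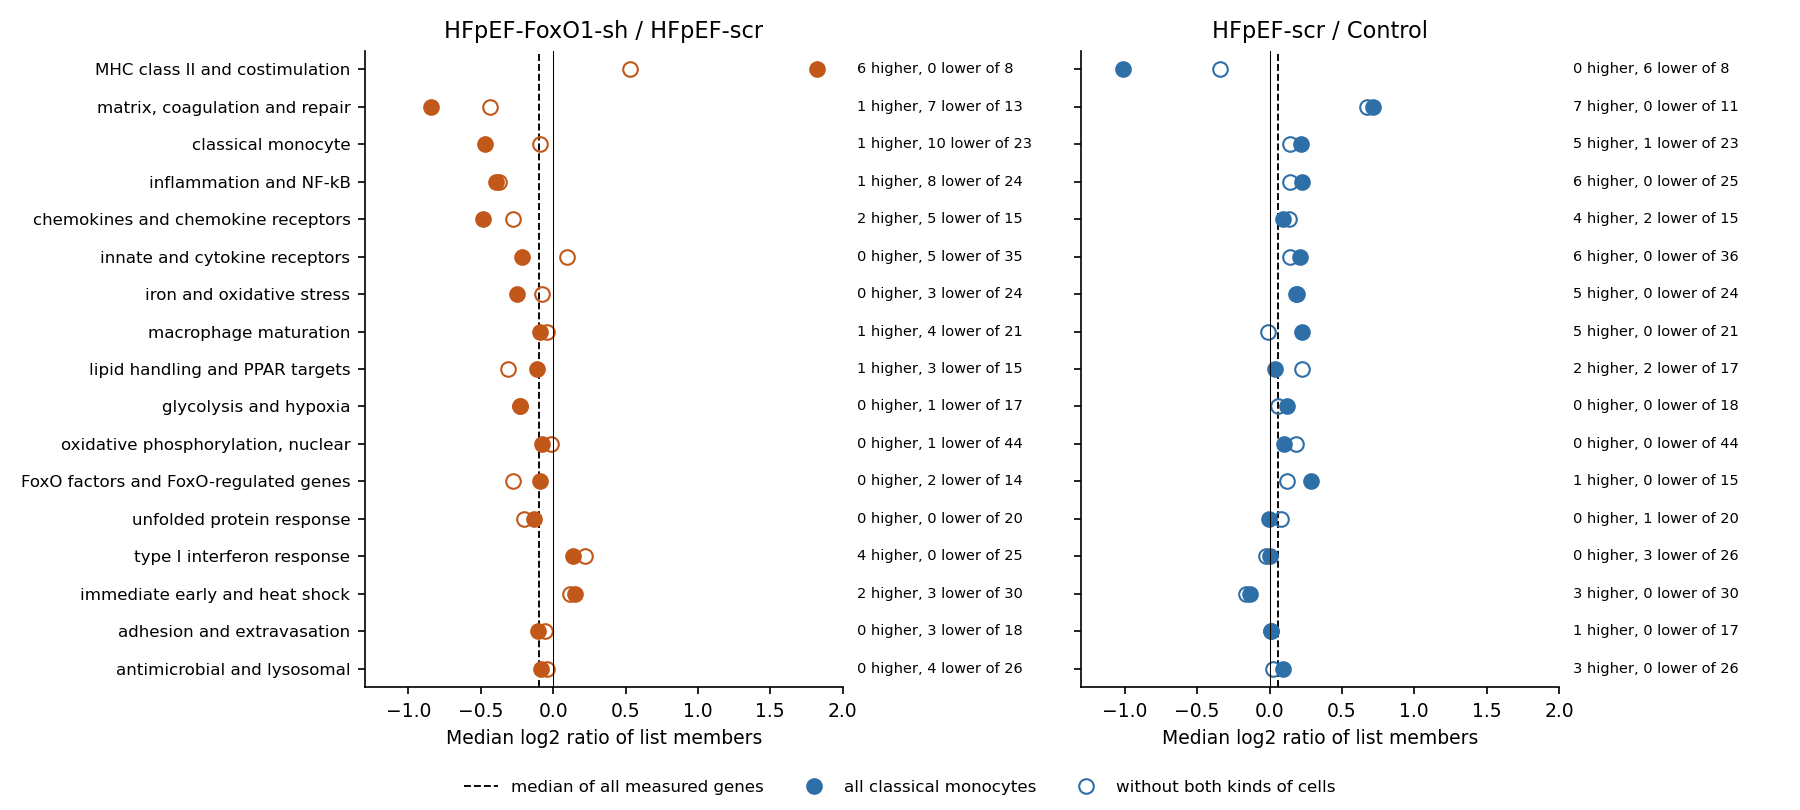
Median log2 ratio of the measured members of 17 gene lists (horizontal axis), for all classical monocytes (filled) and for the remaining cells (open), with the median of all measured genes as a dashed line. Among the 17 lists shown, over all members, MHC class II genes lie farthest out (1.82 for the library labelled HFpEF-FoxO1-sh relative to HFpEF-scr, −1.02 for HFpEF-scr relative to Control). Matrix and coagulation genes lie on the other side (−0.85 and 0.71), and oxidative phosphorylation lies at −0.08 and 0.10. Lists of RNA from other cell types are not shown, and some lie farther out, such as the red cell list (−2.51 and 3.30).

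Outside the lists, single genes with UMIs spread over many cells also differed. Mid1ip1, a regulator of fatty acid synthesis, had 4 UMIs in 3 cells of the library labelled HFpEF-FoxO1-sh, 68 in 39 cells of HFpEF-scr and 5 in 5 cells of Control, with ratios of 0.213 (0.0565 to 0.571) for the library labelled HFpEF-FoxO1-sh relative to HFpEF-scr and 4.52 (1.84 to 14.4) for HFpEF-scr relative to Control. Hcar2, the niacin receptor, had 2 UMIs in the library labelled HFpEF-FoxO1-sh, 55 UMIs in HFpEF-scr and 10 UMIs in Control, with a ratio of 0.132 (0.0156 to 0.499) for the library labelled HFpEF-FoxO1-sh relative to HFpEF-scr. Mob3b had 0 UMIs in the library labelled HFpEF-FoxO1-sh, 40 UMIs in HFpEF-scr and 7 UMIs in Control. Against a floor of 3 UMIs, its ratio for the library labelled HFpEF-FoxO1-sh relative to HFpEF-scr was at most 0.272, and it was not measured in the remaining cells. Plekho1 was lowest in HFpEF-scr, with 152 CPM in the library labelled HFpEF-FoxO1-sh, 86.4 CPM in HFpEF-scr and 181 CPM in Control and with ratios of 1.76 (1.14 to 2.67) for the library labelled HFpEF-FoxO1-sh relative to HFpEF-scr and 0.478 (0.329 to 0.700) for HFpEF-scr relative to Control.

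Socs3, an inhibitor of cytokine signals, was higher in both comparisons, as was Timp2 of the matrix list, which was called in neither among the remaining cells. Socs3 had 76 UMIs in 14 cells of the library labelled HFpEF-FoxO1-sh (330 CPM), 80 UMIs in 40 cells of HFpEF-scr (96.0 CPM) and 13 UMIs in 9 cells of Control (47.0 CPM). It had ratios of 3.44 (2.48 to 4.77) for the library labelled HFpEF-FoxO1-sh relative to HFpEF-scr and 2.04 (1.13 to 4.00) for HFpEF-scr relative to Control, and kept both calls in the remaining cells, at 1.72 and 2.52. A single cell held 27.6% of the UMIs of the library labelled HFpEF-FoxO1-sh.

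Some of these differences were also seen in non-classical monocytes. Hp there was at 97.3 CPM in the library labelled HFpEF-FoxO1-sh, 383 CPM in HFpEF-scr and 70.7 CPM in Control, with ratios of 0.254 (0.182 to 0.347) for the library labelled HFpEF-FoxO1-sh relative to HFpEF-scr and 5.42 (3.80 to 7.97) for HFpEF-scr relative to Control. Clec4e was at 31.0 CPM in the library labelled HFpEF-FoxO1-sh, 131 CPM in HFpEF-scr and 47.2 CPM in Control, with ratios of 0.236 (0.126 to 0.409) for the library labelled HFpEF-FoxO1-sh relative to HFpEF-scr and 2.78 (1.77 to 4.57) for HFpEF-scr relative to Control. Fn1 was at 142 CPM in the library labelled HFpEF-FoxO1-sh, 321 CPM in HFpEF-scr and 150 CPM in Control, with ratios of 0.440 (0.332 to 0.576) for the library labelled HFpEF-FoxO1-sh relative to HFpEF-scr and 2.14 (1.65 to 2.81) for HFpEF-scr relative to Control. Others were not. Thbs1 in non-classical cells was at 257 CPM in the library labelled HFpEF-FoxO1-sh, 273 CPM in HFpEF-scr and 285 CPM in Control. In neutrophils Hp was at 924 CPM in the library labelled HFpEF-FoxO1-sh, 657 CPM in HFpEF-scr and 829 CPM in Control. Hbb-bs stood in non-classical monocytes at 1331 CPM in the library labelled HFpEF-FoxO1-sh, 4360 CPM in HFpEF-scr and 10307 CPM in Control, an order unlike that in the classical cells. The difference of these ratios between gates was not tested.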

How the data were processed

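The deposited values are raw UMI counts per gene and cell barcode for 30360 genes, 1 matrix per library, per the file headers. The authors used Cell Ranger 6.1.2 and mm10, per the submitters' processing notes. The annotation release and any filter on barcodes are not given in the sources used here. Nothing was imputed, and no batch correction was made.

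UMIs were summed over the classical monocytes of each library and divided by their total to give CPM. Intervals are exact, Clopper-Pearson for shares of cells, Poisson for CPM and conditional binomial for ratios, and log2 ratios use CPM with a pseudocount of 1. Depth per monocyte sets the precision. Scrublet in scanpy 1.11.5 (expected rate 12%) only marked doublets, and none were removed. The other tools were scipy 1.17.1, numpy 2.4.6, matplotlib 3.10.9 and pandas 2.3.3 under Python 3.11.15, and the ratio rule was tested on simulated data. The simulation drew the UMI sums of each library as independent UMIs, without cells. It leaves out that UMIs of 1 cell come together, so it cannot give the rate of false calls in these data. In it, counting noise alone called some unchanged genes, at a rate close to the smallest shares of called genes printed above. The bounds for passing were loosened after a first check had failed. Gene positions are from GENCODE vM21 (GRCm38) and promoter sequences from RefSeq.

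The members, the gene lists (31 lists of 676 genes, 672 of them in the files) and the tests were chosen with earlier results of these data known. In each comparison up to 12 called genes per direction with the largest log2 ratio, held by at least 10 cells of the higher library and with at most 25% of its UMIs from 1 cell, and up to 4 measured members per list could be named, besides Foxo1, Foxo3, Ccr2 and the rule genes. Other genes named were chosen after their values were seen. Clec7a, Ighm, Igkc and Trbc2 were not analysed here, and some single genes that the rule could name are not reported here. Alternatives to the cell filter, the rule, the doublets, the depth, the minimum of UMIs, the pseudocount and the way of averaging were run, and the settings that leave out MHC class II-high cells or cells with other-cell RNA were chosen after seeing the data.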

Additional observations from a re-analysis of the deposited data

How the results depend on the processing

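No paired analysis was possible because each group is 1 library. No library was left out for the same reason, and genes under 40 UMIs in a setting have no value there. Depth limits the smallest library most, with 30 monocytes in the library labelled HFpEF-FoxO1-sh. Of the summary results over all settings, 59 values stayed near the reported one and 23 did not. Of the gene and list values, 2997 stayed near, 281 moved and 15 turned round, and the cause was not tested. Values count as turned round only for called genes and for lists with at least 3 calls, 75% of them one way, and a median of at least 0.1 either way, limits set after values were seen. Signs also changed in 76 values, from 29 genes, and in 53 values, from 13 lists, where the gene or list was not called in that comparison, such as the chemokine list for the library labelled HFpEF-FoxO1-sh relative to HFpEF-scr (0.07 with a rule sum of at least 8).

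Counts are given as genes higher or lower, with 183 and 92 for HFpEF-scr relative to Control and 130 and 234 for the library labelled HFpEF-FoxO1-sh relative to HFpEF-scr as reported. With at most 10% mitochondrial UMIs the share ratio of HFpEF-scr relative to Control was 4.52, 99 genes were higher for HFpEF-scr relative to Control, and 62 were higher and 135 lower for the library labelled HFpEF-FoxO1-sh relative to HFpEF-scr. With a rule sum of at least 8, 153 were lower for the library labelled HFpEF-FoxO1-sh relative to HFpEF-scr. With means over cells in place of sums, 250 were higher and 602 lower for that comparison, and 457 and 195 for HFpEF-scr relative to Control. A minimum of 20 UMIs gave 302 and 161 for HFpEF-scr relative to Control, and no minimum gave 367 and 274, with 311 higher for the library labelled HFpEF-FoxO1-sh relative to HFpEF-scr. Thinning to 2000 UMIs, which leaves fewer genes measured, gave 26 and 50 for the library labelled HFpEF-FoxO1-sh relative to HFpEF-scr, and 40 and 30 for HFpEF-scr relative to Control. Without MHC class II-high cells 113 were lower for the library labelled HFpEF-FoxO1-sh relative to HFpEF-scr. Without both kinds of member the counts were 67 and 83 for that comparison, and 119 and 57 for HFpEF-scr relative to Control. Of all calls for the library labelled HFpEF-FoxO1-sh relative to HFpEF-scr, 35.7% were higher, and 51.5% without MHC class II-high cells.

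Log2 ratios or list medians that turned round in HFpEF-scr relative to Control were Bst2 (0.77) and Nfkbiz (−0.50) with the 10% limit, the endothelial list (0.014) without marked doublets and the macrophage list (−0.011) without both kinds. For the library labelled HFpEF-FoxO1-sh relative to HFpEF-scr they were the adhesion list (0.13) and the innate receptor list (0.018) with the 10% limit, the fibroblast list (1.06) without marked doublets, and the innate receptor (0.0090) and fibroblast (0.34) lists after thinning. Without MHC class II-high cells they were the fibroblast list (0.11), Irf8 (−0.019), H2-DMb1 (−0.56) and Egr1 (0.16). Without both kinds it was the innate receptor list (0.094), and without members with other-cell RNA the type I interferon list (−0.0025).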

Other observations

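Other lists held single genes that differed. Of 30 measured immediate early and heat shock genes, 2 were higher and 3 lower for the library labelled HFpEF-FoxO1-sh relative to HFpEF-scr (median log2 ratio 0.15), and 3 were higher and 0 lower for HFpEF-scr relative to Control (median −0.13). These counts lie near the shares of all measured genes, 4% higher and 7.19% lower in the first comparison and 5.49% and 2.76% in the second. Egr1, an early response transcription factor, was at 126 CPM in 6 cells of the library labelled HFpEF-FoxO1-sh, 200 CPM in 38 cells of HFpEF-scr and 72.3 CPM in 11 cells of Control. Its ratio was 0.629 (0.409 to 0.938) for the library labelled HFpEF-FoxO1-sh relative to HFpEF-scr and 2.77 (1.74 to 4.66) for HFpEF-scr relative to Control, and 0.237 and 1.95 in the remaining cells. Without MHC class II-high cells alone, the first of these turned round, to a log2 ratio of 0.16. Of 13 glucocorticoid response genes 1 was higher and 2 were lower for the library labelled HFpEF-FoxO1-sh relative to HFpEF-scr, and of 14 1 was higher and 1 lower for HFpEF-scr relative to Control. Mt1, a metallothionein that binds zinc, was at 274 CPM in the library labelled HFpEF-FoxO1-sh, 128 CPM in HFpEF-scr and 213 CPM in Control, held by 10 cells of the library labelled HFpEF-FoxO1-sh, 28 of HFpEF-scr and 13 of Control. For the library labelled HFpEF-FoxO1-sh relative to HFpEF-scr its ratio was 2.13 (1.54 to 2.94), and 2.50 in the remaining cells.

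Subunits of the immunoproteasome, which cut peptides for MHC class I, were among the few interferon gamma genes measured. Psmb8 was at 492 CPM in the library labelled HFpEF-FoxO1-sh, 319 CPM in HFpEF-scr and 437 CPM in Control, with a ratio of 1.54 (1.22 to 1.93) for the library labelled HFpEF-FoxO1-sh relative to HFpEF-scr, and 1.53 in the remaining cells. Of 26 antimicrobial and lysosomal genes, 0 were higher and 4 lower for the library labelled HFpEF-FoxO1-sh relative to HFpEF-scr, and 0 and 0 of 25 in the remaining cells. For HFpEF-scr relative to Control 3 of 26 were higher and 0 lower, and 1 and 0 of 25 in the remaining cells. All measured genes had shares of 4% higher and 7.19% lower in the first comparison, and 5.49% and 2.76% in the second. Ctsc, the protease that activates granule enzymes, was at 313 CPM in the library labelled HFpEF-FoxO1-sh, 570 CPM in HFpEF-scr and 549 CPM in Control, with a ratio of 0.549 (0.423 to 0.705) that was 0.698 in the remaining cells. Of the non-classical monocyte genes, Pou2f2, a transcription factor, was at 191 CPM in the library labelled HFpEF-FoxO1-sh, 115 CPM in HFpEF-scr and 137 CPM in Control. The ratio for the library labelled HFpEF-FoxO1-sh relative to HFpEF-scr, 1.66 (1.14 to 2.40), was 3.05 in the remaining cells. Only 6 proliferation genes and at most 6 cholesterol genes were measured, too few UMIs to describe those programmes at this depth.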
